A study of Caenorhabditis elegans with 10 samples.

Results

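The 36 genes described here encode proteins of the nematode sarcomere and of the structures that anchor it to the muscle cell membrane. They were taken from a fixed list of gene symbols, and all 36 were found among the 17118 genes that had a probe set with exactly 1 symbol in the platform annotation. Where a gene had several such probe sets, the one with the highest average signal across the 10 arrays stood for it. The list holds 8 thick filament genes, 3 genes of giant filament-associated proteins, 13 thin filament genes, 11 attachment genes and unc-68, a calcium release channel gene.

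The mutant strain carried the deletion allele ok698 of xpa-1, the counterpart of the human XPA protein of nucleotide excision repair, and the wild type was Bristol N2. Each strain was measured on 5 Affymetrix arrays with total RNA of untreated worms of mixed stage, grown at 20 degrees for 3 to 4 days on HT115(DE3) bacteria. Each array came from a pool of worms washed from 10 to 20 plates, so the spread between arrays holds both culture and array variation. The sources used here do not state whether the mutant was outcrossed, nor the share of each stage in a pool. The xpa-1 transcript checked the strain labels, with a log2 signal of 0.72 ± 0.70 in xpa-1 and 6.62 ± 0.19 in N2 (SD, n = 5 each, limma adjusted p = 5.17e-05).

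The sarcomere is the contractile unit of striated muscle, in which myosin thick filaments pull on actin thin filaments when calcium binds the troponin complex. In C. elegans the body wall muscle is obliquely striated, and its thin filaments are anchored at dense bodies and its thick filaments at M-lines. Both structures are attached through integrin to the basement membrane, and so transmit force to the cuticle. The pharynx, the feeding organ, has its own myosin and troponin genes. In whole worms, fewer muscle cells and less muscle RNA per cell cannot be told apart.

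The muscle genes did not differ between the strains beyond the spread between arrays. Of the 36, 0 passed an adjusted p of 0.05 in limma, and 0 had an unadjusted p under 0.05, against 0.111% of all 17118 genes past the adjusted threshold and 3.33% past the unadjusted one. Every member had an adjusted p of 1 in limma, and for every member the strain difference was smaller than 1 pooled SD between arrays. For 0 members did the arrays of the strains lie apart, against 0.374% of all genes. The signals lay between 4.32 and 11.52 in log2 and none stood at the floor of the scale, which is 0.

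**Figure D1:**
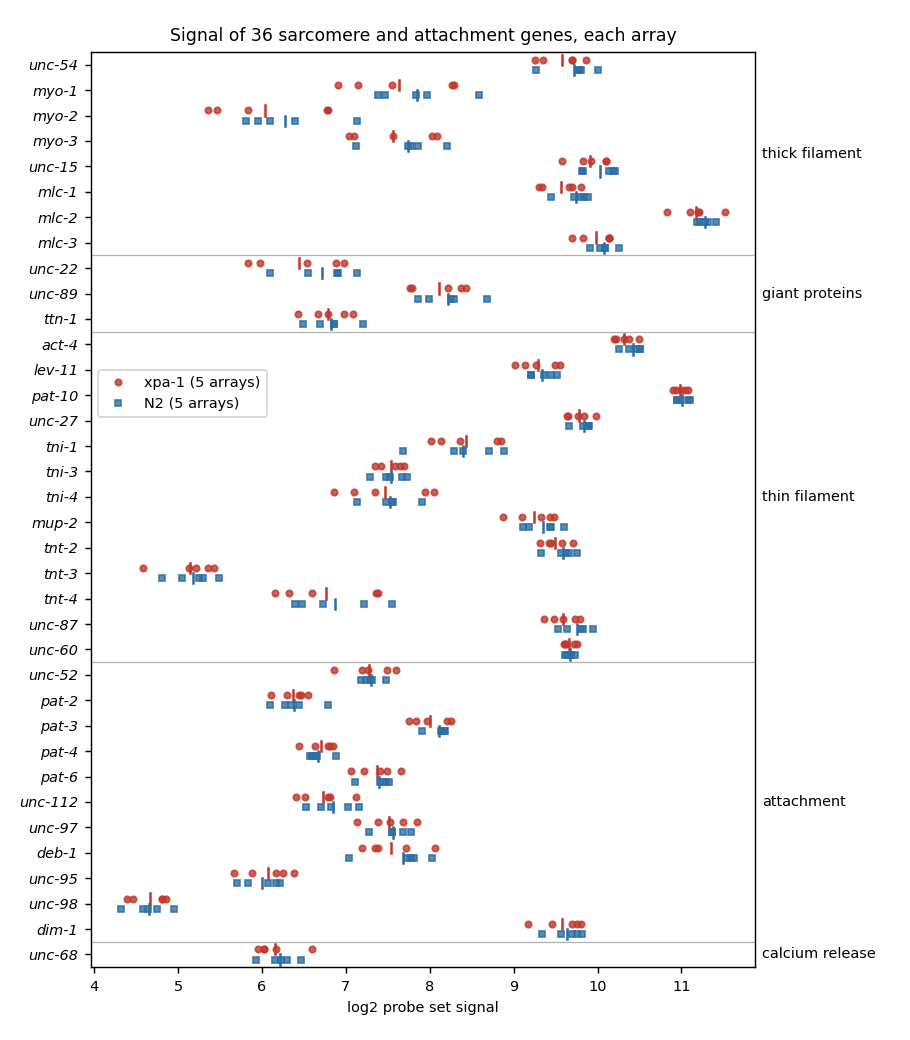
Log2 probe set signal (horizontal axis) of each of the 36 genes (rows, grouped by role) on the 5 xpa-1 arrays (circles, above) and the 5 N2 arrays (squares, below). Short vertical bars mark the strain means. The arrays of the strains overlap for every gene.

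The direction of the small differences was uneven. The difference, xpa-1 minus N2, was below 0 for 32 of the 36 members, against 41.4% of all genes and 35.1% of the 7448 genes whose mean signal lay within the members' range. The median difference was -0.08 over the members and 0.02 over all genes. The members varied together from array to array, so these 32 are not 32 independent observations, and single arrays moved the count. It became 21 when xpa-1 replicate 5 was left out, 25 when xpa-1 replicate 2 was, 24 when N2 replicate 5 was and 36 when xpa-1 replicate 4 was. The share of all genes below 0 in these fits was 40.9%, 40.6%, 46.7% and 40.7%, in the same order. The 95% interval of the fit shows which sizes of change these arrays could have missed. For 35 members the interval lay within a 2-fold change either way and for 28 within a 1.5-fold change. The exception to the first count was myo-2, whose interval ran from -1.06 to 0.59.

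**Figure D2:**
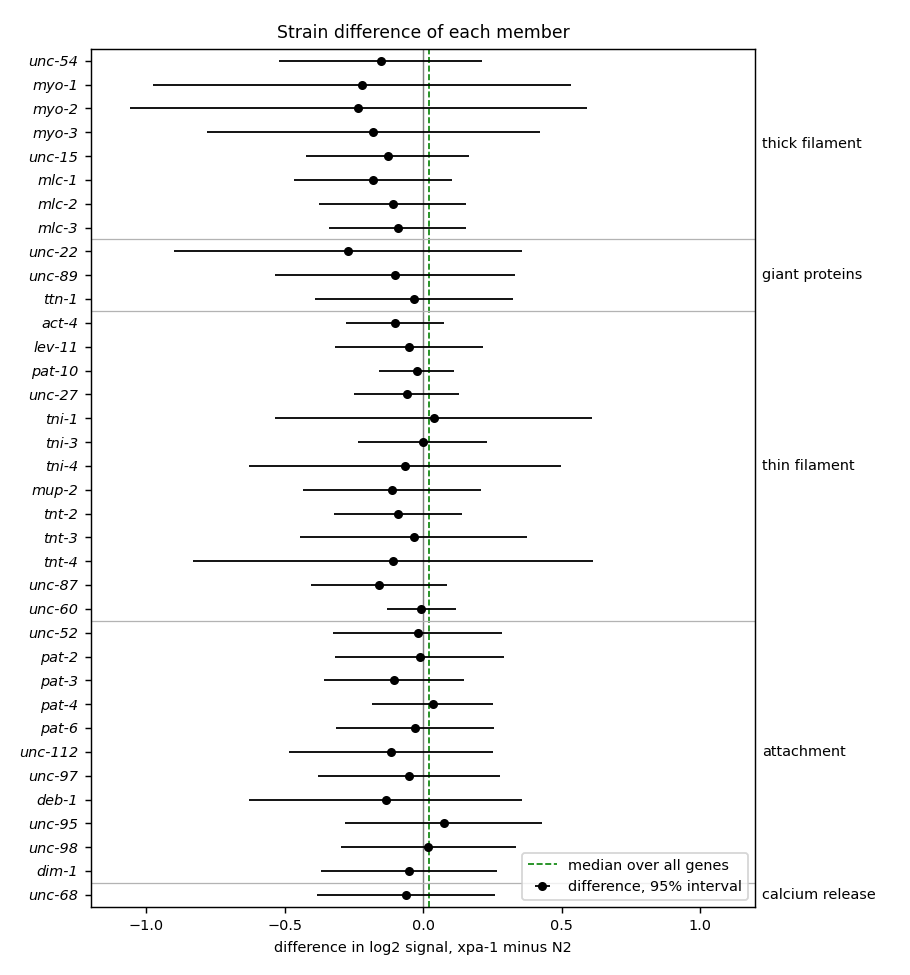
Difference in log2 signal, xpa-1 minus N2 (horizontal axis), of each gene with its 95% interval from limma. The dashed line is the median over all genes, 0.02. Of 36 points 32 lie left of 0, and every interval crosses 0.

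The thick filament genes had a median difference of -0.17, with all 8 below 0 and values from -0.23 to -0.09. The myosin light chain gene mlc-2 (C36E6.5, chromosome X) read 11.20, 10.83, 11.52, 11.21 and 11.10 in log2 on xpa-1 arrays 1 to 5, against 11.18, 11.28, 11.32, 11.22 and 11.41 on N2 arrays 1 to 5. The xpa-1 arrays held both the lowest and the highest value, and enclosed all the N2 arrays. The difference was -0.11 (SE 0.118, limma adjusted p = 1). The other regulatory light chain gene, mlc-1 (C36E6.3), had means of 9.56 ± 0.22 in xpa-1 and 9.74 ± 0.18 in N2 (SD, n = 5 each). The 2 light chain genes encode closely related proteins and the mlc-2 probe set carries the suffix of probe sets that may detect more than 1 related transcript, so their signals may not be separate.

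Among the myosin heavy chain genes, myo-2 (T18D3.4, chromosome X), which is used in the pharynx, had the most negative difference of the thick filament genes. Its log2 signal was 5.83, 5.46, 6.78, 6.77 and 5.36 on the xpa-1 arrays and 5.81, 5.95, 6.39, 6.09 and 7.13 on the N2 arrays. The xpa-1 arrays fell into 2 high and 3 lower values, and 1 N2 array was above them all. The difference of -0.23 (SE 0.366) was well under the pooled SD of 0.615. The other pharyngeal heavy chain gene, myo-1 (R06C7.10, chromosome I), had means of 7.63 ± 0.63 in xpa-1 and 7.85 ± 0.48 in N2 (SD, n = 5 each). The body wall heavy chain genes were unc-54 (F11C3.3), the major myosin, at 9.57 ± 0.26 and 9.72 ± 0.28, and myo-3 (K12F2.1), whose product sits at the filament centre, at 7.56 ± 0.49 and 7.74 ± 0.39, xpa-1 before N2 (SD, n = 5 each). Of the remaining thick filament genes, unc-15, the paramyosin core of the filament, differed by -0.13 (SE 0.13). The essential light chain gene mlc-3 (F09F7.2, chromosome III) had the least negative difference of the thick filament genes. It read 10.13, 9.82, 10.14, 10.13 and 9.70 on the xpa-1 arrays and 9.91, 10.03, 10.09, 10.09 and 10.26 on the N2 arrays. The lowest 2 arrays were from xpa-1 and the highest from N2, and the difference was -0.09 (SE 0.11).

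The 3 genes of giant proteins also had differences below 0, with a median of -0.10. Of all 36 members, the difference furthest from 0 was that of unc-22 (ZK617.1, chromosome IV), which encodes twitchin, a kinase bound along the thick filament. It read 6.54, 5.98, 6.98, 6.88 and 5.83 on the xpa-1 arrays and 6.09, 6.55, 6.89, 6.91 and 7.13 on the N2 arrays. The lowest 2 values were both from xpa-1, but the next was from N2, and the strains overlapped over most of the range. The difference was -0.27 (SE 0.278, limma adjusted p = 1), with a 95% interval from -0.90 to 0.36. The obscurin-like M-line gene unc-89 (C09D1.1) read 8.22, 7.76, 8.43, 8.37 and 7.79 in xpa-1 and 7.86, 7.99, 8.29, 8.25 and 8.68 in N2, a difference of -0.10 (SE 0.192). The titin-like gene ttn-1 (W06H8.8, chromosome V), with the difference closest to 0 of the giant proteins, read 6.78, 6.67, 7.08, 6.98 and 6.43 in xpa-1 and 6.49, 6.69, 6.86, 6.86 and 7.20 in N2. The strains overlapped over nearly the whole range, and the difference was -0.03 (SE 0.159).

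The thin filament genes had a median difference of -0.06, with 12 of 13 below 0. The troponin C gene pat-10 (F54C1.7, chromosome I), the calcium sensor of the thin filament, read 11.08, 10.93, 10.90, 11.04 and 10.99 on the xpa-1 arrays and 11.10, 10.95, 10.95, 11.08 and 10.98 on the N2 arrays. All 10 values lay within 1.15-fold of each other, and the difference was -0.02 (SE 0.06). The most negative difference was that of unc-87 (F08B6.4, chromosome I), an actin-bundling protein with calponin-like repeats. Its signal was 9.73, 9.48, 9.79, 9.59 and 9.36 in xpa-1 and 9.64, 9.53, 9.80, 9.83 and 9.95 in N2, and its difference of -0.16 (SE 0.109) was 0.936 of the pooled SD, the highest such ratio among the members. The only thin filament gene with a positive difference was the troponin I gene tni-1 (F42E11.4, chromosome X). It read 8.36, 8.13, 8.80, 8.85 and 8.01 in xpa-1 and 7.68, 8.71, 8.40, 8.29 and 8.88 in N2, where 1 N2 array was below all others, and the difference was 0.04 (SE 0.254).

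The body wall troponin I genes unc-27 and tni-3 differed by -0.06 (SE 0.0845) and -0.002 (SE 0.103), and the pharyngeal tni-4 by -0.07 (SE 0.25). Of the troponin T genes, which link the complex to tropomyosin, mup-2 differed by -0.11, tnt-2 by -0.09, tnt-3 by -0.03 and the pharyngeal tnt-4 by -0.11. The filament itself was represented by the actin gene act-4, at 10.32 ± 0.12 in xpa-1 and 10.42 ± 0.11 in N2, and by the tropomyosin gene lev-11, at 9.29 ± 0.23 and 9.34 ± 0.14 (SD, n = 5 each). The actin-severing cofilin gene unc-60 stood at 9.66 ± 0.07 and 9.67 ± 0.05, the narrowest spread among the probe sets standing for the members. There the SE of its difference was 0.0545, against 0.0926 to 0.135 for its other probe sets, all with a mean over 8.

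The attachment genes had a median difference of -0.03, with 8 of 11 below 0. Dense bodies hold vinculin, encoded by deb-1 (ZC477.9, chromosome IV), which had the most negative difference of the attachment genes. It read 7.38, 7.19, 8.06, 7.72 and 7.34 on the xpa-1 arrays and 7.03, 8.02, 7.78, 7.73 and 7.81 on the N2 arrays. The lowest array was from N2 and the highest from xpa-1, although the difference in means was -0.14 (SE 0.219). The most positive difference was that of unc-95 (Y105E8A.6, chromosome I), a LIM domain protein of dense bodies and M-lines, with 6.17, 5.67, 6.25, 6.38 and 5.88 in xpa-1 and 5.70, 5.83, 6.17, 6.07 and 6.21 in N2. Its difference was 0.07 (SE 0.158). The immunoglobulin-domain gene dim-1 (C18A11.7, chromosome X) read 9.80, 9.46, 9.76, 9.70 and 9.17 in xpa-1 and 9.56, 9.34, 9.81, 9.75 and 9.69 in N2, a difference of -0.05 (SE 0.141).

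The perlecan gene unc-52, a basement membrane component, differed by -0.02 (SE 0.136). The integrin genes pat-2 (alpha subunit) and pat-3 (beta subunit) differed by -0.01 (SE 0.135) and -0.11 (SE 0.112). Inside the cell, the integrin-linked kinase gene pat-4 differed by 0.03, its partners pat-6 (parvin) and unc-97 (PINCH) by -0.03 and -0.05, and the kindlin gene unc-112 by -0.12. The zinc finger gene unc-98 differed by 0.02. The ryanodine receptor gene unc-68 (K11C4.5, chromosome V), which releases calcium from the sarcoplasmic reticulum, read 6.17, 6.02, 5.95, 6.60 and 6.02 in xpa-1 and 5.93, 6.15, 6.23, 6.30 and 6.46 in N2, a difference of -0.06 (SE 0.143).

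The arrays of a strain differed more than the strains did. On xpa-1 replicate 2 all 36 members were below their own mean over the 10 arrays, and on xpa-1 replicate 5 35 were, with 19 members at their lowest value there. N2 replicate 5 held the highest value of 17 members, and only 4 were below their mean on it. On N2 replicate 1, 29 members were below their mean. On xpa-1 replicates 3 and 4, 3 and 6 members were below their mean, so each strain held both high and low arrays. The mean deviation of the 36 genes was 0.02, -0.28, 0.21, 0.17 and -0.34 in log2 on the xpa-1 arrays and -0.19, -0.06, 0.10, 0.07 and 0.28 on the N2 arrays, a 1.53-fold range. The SD over arrays was larger in xpa-1 than in N2 for 28 of the 36 genes, a difference that was not tested.

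**Figure D3:**
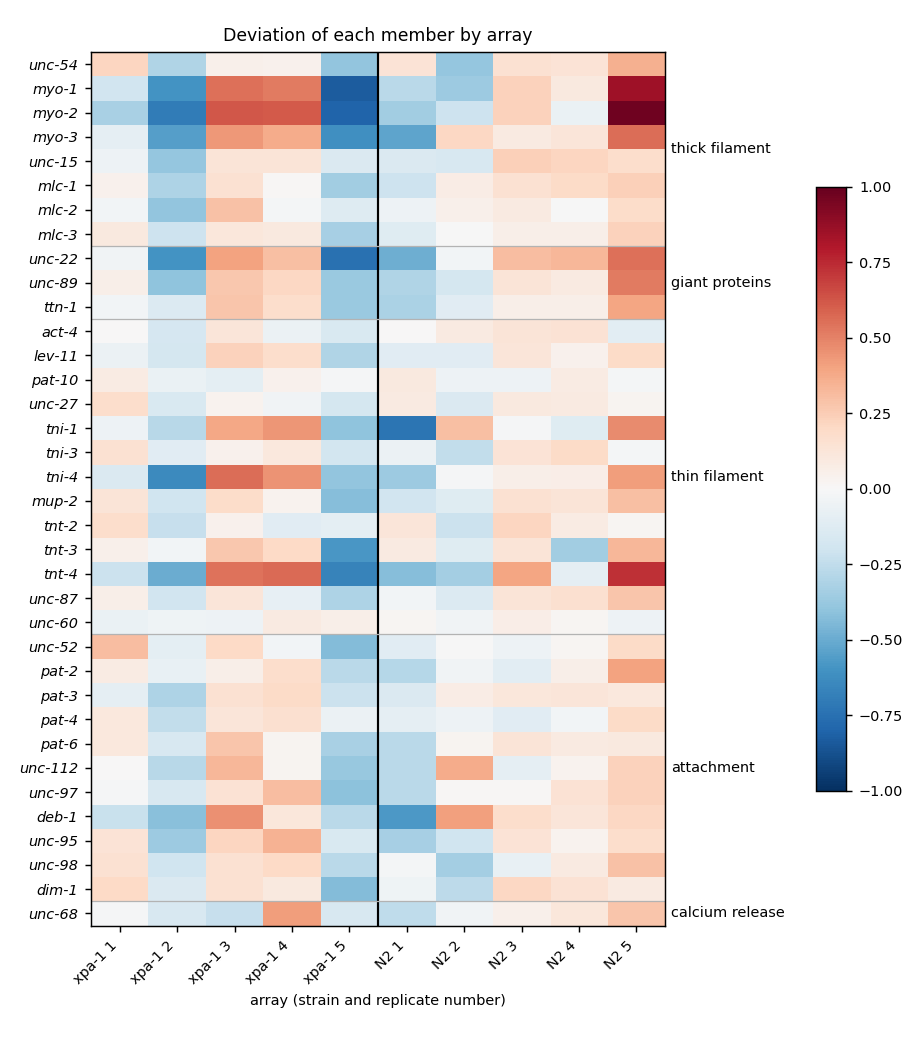
Log2 signal of each gene (rows, grouped by role) minus its mean over 10 arrays, on each array (columns, xpa-1 left of the line and N2 right of it). Blue columns at xpa-1 replicates 2 and 5 and red ones at xpa-1 replicates 3 and 4 and N2 replicate 5 run through nearly all rows, while pat-10 and unc-60 stay pale.

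The size of this shared movement depended on the gene. Over the 10 arrays 8 genes ranged over 2-fold or more, namely myo-1, myo-2, myo-3, unc-22, tni-1, tni-4, tnt-4 and deb-1. The range was 3.41-fold for myo-2, 3.20-fold for myo-1 and 2.64-fold for tnt-4. At the other end 4 genes, all of the thin filament, ranged over less than 1.3-fold. These were act-4 (1.24-fold), pat-10 (1.15-fold), unc-27 (1.27-fold) and unc-60 (1.11-fold), on the probe sets standing for them. The pharyngeal forms myo-1, myo-2, tni-4 and tnt-4, grouped after their values were seen, had a median pooled SD of 0.55, against 0.218 for the other 32 members and 0.204 for all genes within the members' range of signal. The pooled SDs of myo-2 (0.615), myo-1 (0.562) and tnt-4 (0.538) were the highest of all members. Outside this group, unc-22 (0.466), myo-3 (0.445) and tni-1 (0.424) exceeded tni-4 (0.417). The mean deviation of the pharyngeal forms ran over a 2.67-fold range, with the lowest array xpa-1 replicate 5 and the highest N2 replicate 5.

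With the strain means removed, the members rose and fell together over the 10 arrays. The correlation between 2 members had a median of 0.68 over 630 pairs, and 574 pairs were above 0. The same correlation between a member and each of the other genes with a mean log2 signal over 8 had a median of -0.11. The members' own mean signals had a median of 7.7, so these other genes were brighter than many members. By role, the median was 0.77 between thick filament genes, 0.71 between attachment genes, 0.75 between a thick filament and an attachment gene, and 0.42 between thin filament genes. The pair myo-1 and myo-2 correlated at 0.98, also the highest value among the pairs. Only pat-10 and unc-60 had a median correlation with the other members below 0, at -0.08 and -0.12. The probe sets standing for them varied little to begin with. All these points share the same 10 arrays and their scaling, so they are given as a description without a test.

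Lists of stage markers moved with the muscle genes. The oocyte and germline list, with 20 of 20 markers measured and none at 0 on all arrays, had means of 9.12, 9.37, 9.12, 9.12 and 9.43 in log2 on the xpa-1 arrays and 9.50, 9.32, 9.12, 9.18 and 8.78 on the N2 arrays. Its summed signal ran from 13449 to 16768 in xpa-1 and from 11207 to 17584 in N2. The larval molting list, with 16 of 16 measured, had means of 7.43, 6.43, 7.33, 7.31 and 6.25 in xpa-1 and 5.81, 6.87, 7.48, 7.08 and 7.69 in N2, and its summed signal ran from 7268 to 9999 in xpa-1 and from 7751 to 10553 in N2. The arrays with low muscle signal, xpa-1 replicates 2 and 5 and N2 replicate 1, were the 3 with the lowest molting mean, and were high in the germline list. The array with the highest muscle signal, N2 replicate 5, had the lowest germline mean and the highest molting mean.

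Across the 10 arrays the mean deviation of the 36 genes correlated with the germline list at r = -0.88 (Spearman's rho -0.93) and with the molting list at r = 0.88 (rho 0.83). Without the 2 arrays furthest from the median of the list these were -0.94 and 0.90. The 2 lists themselves correlated at r = -0.92 over the 10 arrays, so the 2 correlations are not separate observations. Since these lists and the members share the scaling of each array, the values are a description, with no p. Of single members, 34 of 36 had a correlation below 0 with the germline list and 34 above 0 with the molting list, the exceptions being pat-10 and unc-60. The value for unc-89 was -0.95 with the germline list. The sperm list did not run with the muscle genes (r = 0.13, rho -0.05). Its means were 4.72, 3.95, 3.65, 3.58 and 3.78 in xpa-1 and 3.66, 2.87, 4.54, 4.66 and 3.81 in N2, with 11 of 13 markers measured.

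**Figure D4:**
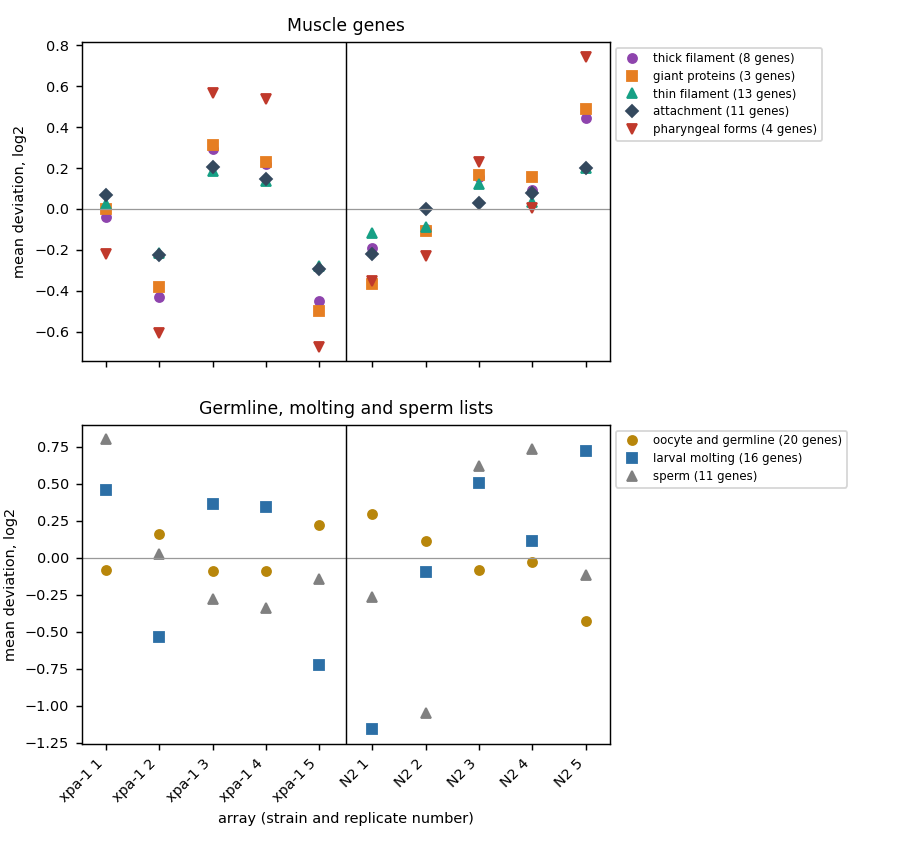
Mean deviation in log2 from the mean over 10 arrays, on each array (xpa-1 left of the line, N2 right of it), for the muscle genes by role (upper panel) and for the germline, molting and sperm lists (lower panel). The pharyngeal forms are also counted in the thick and thin filament groups. Muscle and molting lists are low on xpa-1 replicates 2 and 5, where the germline list is high.

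The strain difference was also fitted with each list as a covariate. With the germline list, 25 of 36 members had a difference below 0, against 42.5% of all genes in that fit. The median difference was then -0.10 for the thick filament, -0.03 for the giant proteins, -0.01 for the thin filament and 0.01 for attachment genes. With the molting list, 31 were below 0, against 42.1% of all genes in that fit, and the thick filament median was -0.15. No member passed the limma threshold in either fit, against 22 of 17118 genes with the germline list and 20 with the molting list. At an unadjusted p under 0.05 there were 0 members with the germline list and 1 with the molting list, mlc-1 (limma adjusted p = 0.946). The share of all genes at that unadjusted p is not given for these fits. Without a covariate it was 3.33%.

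Neuronal and intestinal lists were measured as other tissues of the worm. The neuron list had means of 5.37, 5.05, 5.72, 5.68 and 5.18 on the xpa-1 arrays and 4.84, 5.72, 5.21, 5.30 and 5.83 on the N2 arrays. Its lowest array was N2 replicate 1 and its highest N2 replicate 5, with 12 of 12 markers measured. The intestine list had means of 8.96, 8.76, 9.04, 8.99 and 8.71 on the xpa-1 arrays and 8.70, 8.77, 8.89, 8.93 and 8.99 on the N2 arrays, a 1.27-fold range, with 11 of 13 measured. Both lists also ran with the muscle genes over the 10 arrays. The mean deviation of the 36 genes correlated with the intestine list at r = 0.91 (rho 0.89) and with the neuron list at r = 0.74 (rho 0.75), and at 0.87 and 0.64 without the 2 arrays furthest from each list's median. The shared movement was therefore not seen in muscle genes alone. In all 5 marker lists 0 genes passed in limma, and 0 had an unadjusted p under 0.05, against 0.111% and 3.33% of all genes.

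Other genes were listed by role, as sarcomere, adhesion and basement membrane, excitation and calcium handling, and muscle transcription factor genes. These did not pass either. Of 63 such genes listed, 59 were measured, and 35 of the 59 had a difference below 0, against 41.4% of all genes. In limma 0 passed and 0 had an unadjusted p under 0.05, against 0.111% and 3.33% of all genes. Among 14 other sarcomere genes the median difference was -0.05, with 11 below 0. There the actin gene act-3 stood at 10.41 ± 0.09 in xpa-1 and 10.43 ± 0.09 in N2 (SD, n = 5 each). The sarcomere gene unc-96 differed by -0.24 (SE 0.223), and unc-45, the myosin chaperone, by 0.11 (SE 0.0757).

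Among 21 other adhesion and basement membrane genes the median was -0.02, with 11 below 0. Here ost-1, the SPARC gene of the basement membrane, stood at 9.82 ± 0.12 in xpa-1 and 9.81 ± 0.12 in N2 (SD, n = 5 each). The dim collagen XVIII gene cle-1 differed by -0.43 (SE 0.274) and vab-19, which is also dim, by 0.26 (SE 0.516). The 17 excitation and calcium handling genes had a median of -0.03, with the calcium pump gene sca-1 at 9.30 ± 0.34 and 9.46 ± 0.06 in xpa-1 and N2 (SD, n = 5 each). The acetylcholine receptor gene acr-16, close to the floor at 2.04 ± 1.19 in xpa-1 and 3.00 ± 0.13 in N2 (SD, n = 5 each), differed by -0.96 (SE 0.501), and the receptor gene unc-38 by 0.20 (SE 0.152).

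The 7 muscle transcription factor genes had a median of 0.12, with 2 below 0. The body wall factor gene unc-120 stood at 5.84 ± 0.26 in xpa-1 and 5.73 ± 0.16 in N2 (SD, n = 5 each), the pharyngeal factor gene ceh-22 differed by 0.20 (SE 0.294) and the mesodermal factor gene hlh-8 by -0.10 (SE 0.0943). None of these 7 genes passed the threshold in limma (adjusted p = 1).

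The members were covered by 76 probe sets in all, of which 21 genes had several and 15 had 1. Over these probe sets 0 passed in limma and 1 had an unadjusted p under 0.05, against 3.26% of all probe sets. It was a dim probe set of unc-89 (mean log2 signal 3.02) with a difference of -0.51, and the other 4 probe sets of unc-89 differed by -0.10 to -0.34. Among probe sets with a mean of 4 or more, those of 7 genes differed in sign, namely lev-11, pat-3, pat-4, unc-52, unc-60, unc-68 and unc-97. For unc-68 the 3 probe sets differed by -0.06, 0.12 and 0.55, the last from a dim one. Of the probe sets standing for the members, 24 carried a suffix of probe sets that may detect more than 1 related transcript, and 12 did not.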

How the data were processed

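Each array has 1 column of deposited log2 signals, which the authors made with Affymetrix Expression Console, per the submitters' processing notes. The sources used here do not say how signals were summarised, background-corrected and scaled. Below a log2 signal of 5 every value matched a whole number on the linear scale (tolerance 0.005 in log2), so the scale has a floor of 0. Array medians lay between 4.00 and 4.25, and 10.3% to 12.3% of values stood at 0. Arrays have no read depth, and their number limits the precision. Of the probe sets, 77 controls were dropped and 22548 tested.

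The values were used without further scaling or filter. A linear model with strain as its only term was fitted to all probe sets and moderated with eBayes (limma 3.58.1, R 4.3.3, two-sided). The p-values of the probe sets standing for the 17118 genes were adjusted by Benjamini-Hochberg, with a threshold of 0.05. Differences are xpa-1 minus N2, and SE is the fit's standard error. The fit was tested on simulated data. Chromosomes and locus names were looked up in RefSeq (assembly WBcel235), where all 36 members were found, and no coordinates are given because the file names no build. Members and gene lists were chosen with earlier results of these data known. The members with values on every array were, for each role, the one with the highest signal, and those at either end of the differences; of each other list the same 3 genes are named. A highest signal chooses a probe set and gives no order of abundance between genes. Alternatives changed the scaling, the low end of the scale, the probe sets, the fit, the covariates and the arrays included.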

Additional observations from a re-analysis of the deposited data

Results flagged for a closer look

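The highest and lowest array of each strain were tested for their distance from the rest in 80 groups of 5 values, the 36 members and 4 role means in each strain. An array stood apart in 2 groups, where a rate of about 1 in 20 groups would give 4. The role means are averages of the members, and the members moved together, so the groups are not independent. The comparison with 4 is therefore only rough, and nothing is concluded from it. Both groups with an array apart were attachment genes, on N2 replicate 1. The integrin beta gene pat-3 read 7.91 there, against 8.13 to 8.18 on the other N2 arrays, and the parvin gene pat-6 read 7.11, against 7.41 to 7.51.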

How the results depend on the processing

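No member and no measured gene of the other lists by role passed the threshold in limma under any of the 21 alternatives. The number of all genes past it, 19, became 12 without dim probe sets and 5 with replicate number as a block. It ranged from 13 to 21 when single arrays were left out. The block cannot move a difference of strain means in this balanced design, and with it, as without it, 0 members passed. Deviations of arrays with the same number correlated at -0.27 to -0.03, and 0 of 5 arrays matched best with their own number. These values gave no sign that the numbers pair the samples, but cannot show whether arrays of the same number were handled together. The count of members below 0 was recomputed, a step added after seeing the data. It was 32 under quantile normalization, median centring and the offset of 16, and 26 with array weights. With only probe sets of the unshared class it was 19 of the 19 members that have one, against 43.4% of all genes in that setting. For lev-11 that probe set had a mean log2 signal of 0.2, close to the floor, and a difference of -0.40. Without single arrays the count ranged from 21 to 36, and the share of all genes below 0 from 39.9% to 46.7%. Median differences without single arrays ranged from -0.22 to -0.07 for the thick filament, -0.19 to 0.02 for giant proteins, -0.11 to -0.01 for the thin filament and -0.09 to 0.05 for attachment genes. Of single members, 738 of 739 recomputed values moved by less than the spread between arrays or kept their direction, and unc-68 became 0.20 with the mean of its probe sets. The dim filter removed no member, and the trend and robust options change only the spread, so neither bears on that count. Differences of dim genes rest on the low end of the scale.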
